A study of Homo sapiens with 9 samples.

Results

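Interferon-stimulated genes are the genes that a cell switches on when interferon binds its receptors, and 51 of them were followed here in HepG2, a human hepatocellular carcinoma line with hepatocyte features. The members were chosen by symbol, and each was read from the probe sets annotated to that gene alone, taking the brightest one. Of the 51, 50 had such a probe set and 40 were bright enough to be tested, among 13056 tested genes of 19775 annotated in this way. The 10 members too dim for the test are described apart, and STAT2 is not analysed here.

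The study lowered the nuclear receptors HNF4alpha and HNF4gamma together by siRNA and measured total RNA on Affymetrix expression arrays. There are 3 groups of 3 arrays. They are knockdown1, a first double knockdown, knockdown2, a second double knockdown, and their knockdown control. The labels say neither how knockdown1 and knockdown2 differ nor what the control cells received, and they give no time after transfection. All groups are the same cell line. Separate cultures are not stated for the replicates, so p-values rest on array-to-array spread that could be purely technical.

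Type I and type III interferons act through receptors, JAK kinases and STAT proteins to form a transcription complex of STAT proteins with IRF9, which binds the interferon-stimulated response element (ISRE) in promoters. Interferon gamma acts through a gamma-activated site (GAS). The products sense foreign RNA, degrade it, stop translation, tag proteins, trap virus particles at membranes and process antigen, and some of them feed back on the signal.

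A signal is a linear brightness made by the authors with MAS5, brought here to a common array median of 14.1. Differences are given as log2(signal + 1.41), which understates the change of dim genes, and a gene is called where the limma fit over all tested genes gave an adjusted p under 0.05. Over all tested genes, correlations of the log2 values were 0.973 to 0.978 within a group and 0.931 to 0.953 across groups. The brighter probe set of HNF4G, the targeted HNF4gamma gene, read 14.4, 23.5 and 17.4 on the knockdown1 arrays, 41.9, 24.4 and 28.6 on the knockdown2 arrays, and 45.2, 47.9 and 44.9 on the control arrays. It fell in knockdown1 (-1.28, SE 0.28, adjusted p = 0.000538), while knockdown2 gave -0.56 (SE 0.28, adjusted p = 0.142). The dimmer HNF4G probe set read 12.7, 4.31 and 1.98 in knockdown1, 13.3, 1.04 and 2.84 in knockdown2, and 37.5, 28.4 and 21.3 in control. It fell in both knockdowns (-2.20, SE 0.72, adjusted p = 0.0258, and -2.48, SE 0.72, adjusted p = 0.0148, over all probe sets). HNF4A is not analysed here. The summed signal of 16 hepatocyte markers was 60202 to 73375 in knockdown1, 65335 to 70219 in knockdown2 and 68460 to 82848 in control. Of these 16, 0 were called higher and 5 lower in knockdown1, where 14.3% of all tested genes rose and 19% fell. In knockdown2, 0 were called higher and 4 lower, where 13.7% of all tested genes rose and 13.9% fell. Array signal cannot tell fewer cells of a type from less RNA per cell.

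The interferon-stimulated genes differed between the 2 knockdowns. In knockdown1, 6 of the 40 tested members rose against control and 10 fell, where 14.3% of all tested genes rose and 19% fell. In knockdown2, 1 rose and 14 fell, where 13.7% of all tested genes rose and 13.9% fell. The median difference from control over the 40 was -0.01 in knockdown1 and -0.45 in knockdown2, beside -0.01 and 0.01 over all tested genes. Set directly against knockdown2, knockdown1 had 16 members higher (40% of the 40) and 1 lower, where 10.5% of all tested genes were called higher and 16.1% lower. The median of that difference was 0.48 over the members and -0.03 over all tested genes, and 29 of the 40 members had a positive difference. The comparisons with control share the same 3 control arrays.

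Of the 40 members, only IFIT1 was called in opposite directions in the knockdowns in the fit reported here, higher in knockdown1 and lower in knockdown2. In some alternatives MX1 or IRF9 had such opposite calls as well. Lower in both knockdowns were ISG20, IFI35, XAF1, PARP12 and DTX3L, and 0 members were called higher in both. In some alternatives BST2 or OASL was called higher in both. The share of all tested genes with such joint calls is not given here, so these counts describe the members only. Of the 16 members higher in knockdown1 than in knockdown2, 5 were also called above control in knockdown1 and 8 below control in knockdown2, with IFIT1 in both counts. IRF9, PARP9, GBP1 and EPSTI1 differed between the knockdowns with no call against control on their brightest probe sets. The number of rises in knockdown1 depended on the scaling between arrays: with the values as deposited, with quantile normalization and with arrays centred on the tested genes, 10 members rose and 10 fell in each, where 23.8% to 24.1% of all tested genes rose and 19.7% to 20.5% fell. IRF9, MX2, SP110 and EPSTI1 were the further rises. With the values as deposited, 20 members were higher in knockdown1 than in knockdown2 and 1 lower, where 21.5% of all tested genes were called higher and 16.1% lower. With arrays centred on the tested genes 20 were higher and 3 lower, where 17.3% were called higher and 19.2% lower. With only the arrays of the groups compared, 17 were higher and 3 lower (13.5% and 19.5% of all tested genes). EIF2AK2 was a further lower call in both settings, with PARP12 in the first and TRIM22 in the second. Between the knockdowns the median over the whole array was -0.03 after scaling and 0.08 as deposited.

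**Figure D1:**
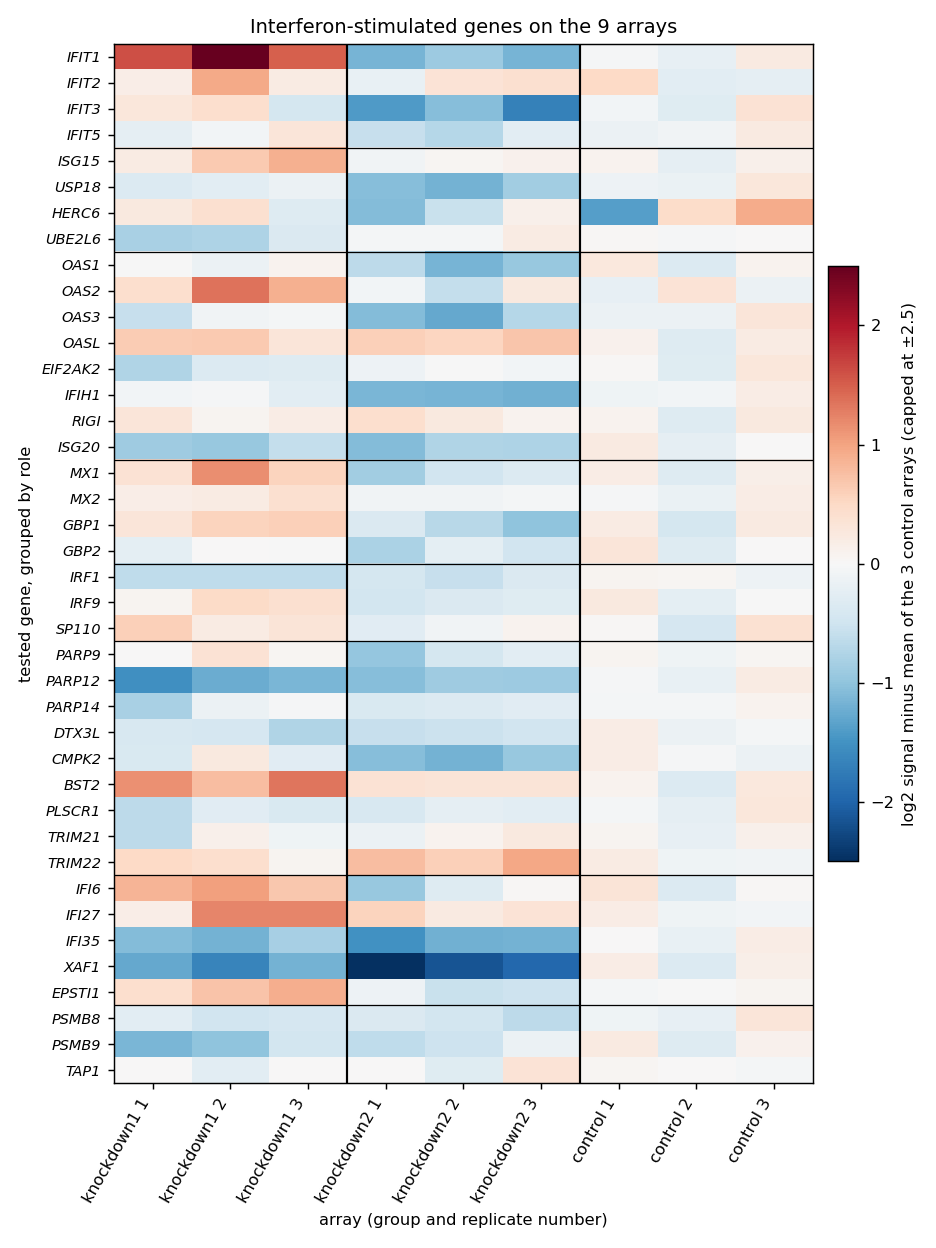
Log2 signal of the 40 tested interferon-stimulated genes on each of the 9 arrays, minus the mean of the 3 control arrays, with genes in rows grouped by role and arrays in columns (knockdown1, knockdown2, control); red is above and blue below the control mean. IFIT1 is red in the knockdown1 columns and blue in the knockdown2 columns, while IFI35, PARP12 and XAF1 are blue in both.

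Promoter windows from RefSeq (GRCh38.p14, 250 bases before to 50 after a transcript start) were found for 43 of the 51 members, with 59 windows in all. The ISRE core, GAAANNGAAA, was searched on both strands. It was found in 34 of the 59 member windows (57.6%) and in 3.57% of all 35116 windows. By gene, 29 of 43 members had it (67.4%), and 4.38% of all genes with a window. The GAS letters, TTCNNNGAA, which read the same on both strands, were in 16 of the 59 member windows (27.1%) and in 7.66% of all windows. ISRE and GAS matches stood together in 10 member windows, and they shared bases in 5 of these. The HNF4 motif CAAAGTCCA was in 0 of the 59 windows and in 0.384% of all windows. A match describes letters in the window, and binding was not measured.

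The 250 bases before the start are printed for the 5 members called in the most comparisons and with the largest changes, since these are the genes on which the results below turn. They are IFIT1 (chr10:89392373-89392622, plus strand), IFIT3 (chr10:89327747-89327996, plus strand), PARP12 (chr7:140062952-140063201, minus strand), IFI35 (chr17:43006534-43006783, plus strand) and XAF1 (chr17:6755197-6755446, plus strand), all in GRCh38.p14 and written 5′ to 3′ along the gene. Capitals mark ISRE core and GAS matches. IFIT3 and XAF1 have 2 windows each. The first window holding an ISRE core was printed where there was one, so that of IFIT3 was picked for its motif. Where none held it, as for XAF1, the window of the outermost start was printed.
IFIT1: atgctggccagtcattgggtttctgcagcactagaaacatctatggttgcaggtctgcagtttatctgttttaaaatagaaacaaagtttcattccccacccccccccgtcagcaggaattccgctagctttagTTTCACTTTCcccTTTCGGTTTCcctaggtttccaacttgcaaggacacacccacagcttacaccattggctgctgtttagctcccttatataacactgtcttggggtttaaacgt
IFIT3: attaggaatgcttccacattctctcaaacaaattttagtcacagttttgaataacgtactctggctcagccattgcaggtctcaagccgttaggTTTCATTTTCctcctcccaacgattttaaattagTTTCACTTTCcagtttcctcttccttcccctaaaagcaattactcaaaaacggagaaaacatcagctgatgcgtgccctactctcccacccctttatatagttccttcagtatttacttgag
PARP12: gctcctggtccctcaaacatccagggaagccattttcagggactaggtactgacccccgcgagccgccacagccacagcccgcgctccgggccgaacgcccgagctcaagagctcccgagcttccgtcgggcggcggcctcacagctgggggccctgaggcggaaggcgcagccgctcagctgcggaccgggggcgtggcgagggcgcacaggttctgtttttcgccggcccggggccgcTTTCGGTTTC
IFI35: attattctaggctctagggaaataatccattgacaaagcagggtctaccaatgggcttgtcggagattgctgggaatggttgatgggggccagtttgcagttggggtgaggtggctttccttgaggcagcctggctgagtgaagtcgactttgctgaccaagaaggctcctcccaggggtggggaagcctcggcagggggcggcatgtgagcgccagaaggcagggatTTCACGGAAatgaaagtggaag
XAF1: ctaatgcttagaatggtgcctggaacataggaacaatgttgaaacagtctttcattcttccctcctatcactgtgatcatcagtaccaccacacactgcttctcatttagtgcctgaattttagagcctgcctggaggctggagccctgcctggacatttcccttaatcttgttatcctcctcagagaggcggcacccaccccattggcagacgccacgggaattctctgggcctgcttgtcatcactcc
IFIT1 has ISRE core matches at -116 to -107 and at -103 to -94, counted from the start, and IFIT3 has them at -156 to -147 and at -122 to -113. PARP12 has its match at -10 to -1. The capitals of IFI35 are a GAS match at -22 to -14, and XAF1 has neither motif in the stretch shown. The ISRE letters thus stand before IFIT1, which had opposite calls in the knockdowns, and before PARP12, which fell in both.

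Of the 33 tested members with a window, 22 held the ISRE core and 11 did not. Among the 22, 6 rose and 5 fell in knockdown1 and 0 rose and 9 fell in knockdown2. Between the knockdowns, 12 of the 22 were higher in knockdown1 and 0 lower. Among the 11 without it, 0 rose and 5 fell in knockdown1, 0 rose and 3 fell in knockdown2, and 3 were higher and 1 lower in knockdown1 than in knockdown2. The median difference between the knockdowns was 0.53 with the letters and 0.47 without them. All 6 members that rose in knockdown1 held the ISRE core in a window, as did 22 of the 33 members compared here. The rises of ISG15, MX1 and IFI6 ended in fits that left out a single array. Of all tested genes, 14.3% rose and 19% fell in knockdown1, and 13.7% rose and 13.9% fell in knockdown2. Between the knockdowns 10.5% were higher in knockdown1 and 16.1% lower. A link between the letters and the calls was not tested.

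The IFIT proteins bind foreign RNA and keep it from being translated, and IFIT1 moved most of all members. IFIT1 had signals of 104, 199 and 96.5 on the knockdown1 arrays, 14.1, 17.0 and 14.0 on the knockdown2 arrays, and 32.7, 28.6 and 39.3 on the control arrays. The 3 groups did not overlap, with knockdown1 highest and knockdown2 lowest. IFIT1 rose 3.67-fold in knockdown1 (1.88, SE 0.25, adjusted p = 1.00e-06) and fell in knockdown2 (-1.08, SE 0.25, adjusted p = 0.00165). It was 7.77-fold higher in knockdown1 than in knockdown2 (2.96, SE 0.25, adjusted p = 4.87e-10). All 3 calls were made under every alternative.

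IFIT3, which partners IFIT1 in RNA binding, read 116, 127 and 69.6 in knockdown1, 34.8, 44.6 and 28.5 in knockdown2, and 91.0, 76.8 and 123 in control. The knockdown1 and control arrays overlapped, and all knockdown2 arrays lay below both. IFIT3 fell in knockdown2 (-1.39, SE 0.22, adjusted p = 1.91e-05), with 0.08 in knockdown1 (SE 0.22, adjusted p = 0.815). Between the knockdowns the difference was 1.47 (SE 0.22, adjusted p = 8.26e-06). IFIT5, another RNA-binding member of the family, showed the same order at a smaller size, with 117, 129.7 and 168 in knockdown1, 91.2, 82.3 and 114 in knockdown2, and 124, 128 and 161 in control. It fell in knockdown2 (-0.52, SE 0.18, adjusted p = 0.0264), and this was no longer called without knockdown2 replicate 1 (-0.49, adjusted p = 0.0815), knockdown2 replicate 2 (-0.42, adjusted p = 0.142) or, in turn, control replicate 3 (-0.40, adjusted p = 0.0891). Its difference between the knockdowns (0.52, adjusted p = 0.0267) ended without knockdown1 replicate 3 (0.37, adjusted p = 0.161), knockdown2 replicate 1 (0.49, adjusted p = 0.082) or knockdown2 replicate 2 (0.42, adjusted p = 0.145). IFIT2 was dim and was called in no comparison. Its dimmer probe set averaged 23.3, 4.75 and 9.63 in knockdown1, knockdown2 and control, a difference between the knockdowns of 1.92 (SE 0.66, adjusted p = 0.0384 over all probe sets), where the brighter one gave 0.26 (SE 0.38).

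**Figure D2:**
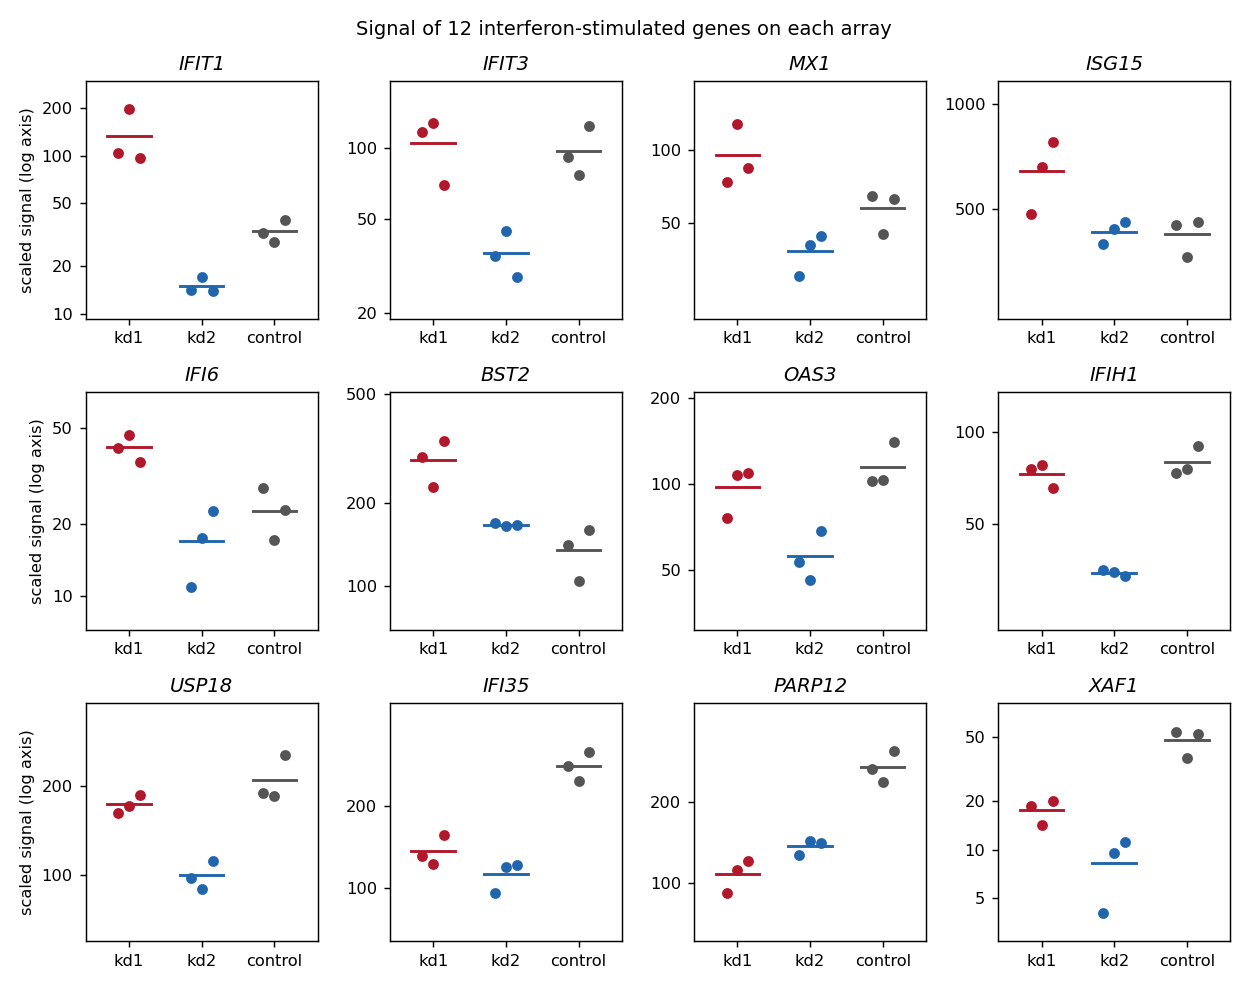
Scaled signal on a log axis of 12 interferon-stimulated genes on each array, with 1 point per array, a line at the group mean and groups in the order knockdown1 (kd1), knockdown2 (kd2) and control. IFIT1 sits at 96.5 to 199 in knockdown1 and at 14.0 to 17.0 in knockdown2, and IFI35 and PARP12 lie below all control points in both knockdowns.

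ISG15 is the ubiquitin-like protein that is attached to other proteins during an interferon response. It read 483, 661 and 777 in knockdown1, 396, 438 and 457 in knockdown2, and 449.8, 363 and 459 in control, so that all knockdown1 arrays lay above the other 6. ISG15 rose in knockdown1 (0.58, SE 0.16, adjusted p = 0.00641) and gave 0.03 in knockdown2 (SE 0.16, adjusted p = 0.931). The rise was no longer called without knockdown1 replicate 3 (0.42, adjusted p = 0.0619). Its difference between the knockdowns was 0.55 (SE 0.16, adjusted p = 0.0116), and that call ended without knockdown1 replicate 3 (0.40, adjusted p = 0.0943) or knockdown2 replicate 1 (0.49, adjusted p = 0.0631).

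The enzymes of the ISG15 system had other patterns than ISG15 itself. UBE2L6, the conjugating enzyme that hands ISG15 on, read 139, 144 and 191 in knockdown1, 237, 239 and 282 in knockdown2, and 251, 239.7 and 247 in control. It fell in knockdown1 (-0.65, SE 0.16, adjusted p = 0.00165). In the fit reported here UBE2L6 was the 1 member called lower in knockdown1 than in knockdown2 (-0.68, SE 0.16, adjusted p = 0.00138). USP18, the protease that removes ISG15 and also restrains the type I receptor, read 162, 171 and 186 in knockdown1, 97.2, 89.8 and 112 in knockdown2, and 188, 184 and 253 in control. It fell in knockdown2 (-1.05, SE 0.16, adjusted p = 1.19e-05) and was higher in knockdown1 than in knockdown2 (0.79, SE 0.16, adjusted p = 0.000413). HERC6, a ligase of the HERC family, scattered between 3.78 and 24.4 within the control group and was not called.

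The RNA sensor gene IFIH1 (MDA5) fell in knockdown2, as did OAS1 and OAS3, whose 2-5A product activates RNase L, while OAS2 was not called. IFIH1 read 75.8, 78.0 and 65.8 in knockdown1, 35.4, 34.7 and 33.7 in knockdown2, and 73.6, 76.0 and 90.4 in control. The knockdown2 arrays lay close together and below all others (-1.17 against control, SE 0.18, adjusted p = 1.51e-05, and 1.05 for knockdown1 minus knockdown2, SE 0.18, adjusted p = 6.73e-05). OAS1 read 59.5, 53.4 and 63.6 in knockdown1, 37.5, 25.7 and 30.2 in knockdown2, and 71.3, 46.7 and 63.2 in control. It fell in knockdown2 (-0.92, SE 0.22, adjusted p = 0.00169), with -0.02 in knockdown1. OAS3, with 76.3, 108 and 109.9 in knockdown1, 53.4, 46.3 and 68.6 in knockdown2, and 102, 103 and 140.2 in control, fell in knockdown2 as well (-1.02, SE 0.19, adjusted p = 0.000157). Both synthetases were higher in knockdown1 than in knockdown2 (0.90, SE 0.22, adjusted p = 0.00216 for OAS1, and 0.79, SE 0.19, adjusted p = 0.0025 for OAS3). OAS2 read 14.4, 28.7 and 20.4 in knockdown1, 9.85, 6.43 and 12.5 in knockdown2, and 8.89, 13.6 and 9.29 in control, passed the filter only through knockdown1, which fixes its order between the groups, and was not called.

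The other sensors and nucleases had other patterns. RIGI, the sensor RIG-I, read 66.9 to 113 on the 9 arrays with no call on its brightest probe set. A second RIGI probe set, averaging 70.8, 98.2 and 66.2 in knockdown1, knockdown2 and control, rose in knockdown2 (0.58, SE 0.20, adjusted p = 0.0341 over all probe sets). EIF2AK2 encodes PKR, the kinase that stops translation on double-stranded RNA, and it read 155, 205 and 209 in knockdown1, 239, 257 and 248 in knockdown2, and 264, 212 and 316 in control. Its fall in knockdown1 (-0.47, SE 0.16, adjusted p = 0.0276) ended without knockdown1 replicate 1 (-0.33, adjusted p = 0.19), control replicate 1 (-0.46, adjusted p of 0.0786) or, in turn, control replicate 3 (-0.33, adjusted p of 0.101). The exonuclease gene ISG20 read 58.1, 56.4 and 71.9 in knockdown1, 51.0, 64.7 and 63.6 in knockdown2, and 128, 93.1 and 110.2 in control, so that all 6 knockdown arrays lay below the controls. ISG20 fell in both knockdowns (-0.81, SE 0.18, adjusted p = 0.000873 in knockdown1, and -0.87, SE 0.18, adjusted p = 0.000588 in knockdown2). The dimmer ISG20 probe set averaged 23.5, 11.7 and 82.6 in knockdown1, knockdown2 and control, which is -1.69 and -2.66 against control (SE 0.31 each). OASL was not called on its brighter probe set (0.53 in knockdown1, SE 0.30, adjusted p = 0.194), and its dimmer probe set gave 1.47 (SE 0.50, adjusted p = 0.0292 over all probe sets).

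MX1, a dynamin-like GTPase that blocks incoming viruses, read 73.4, 128 and 84.1 in knockdown1, 30.3, 40.4 and 44.3 in knockdown2, and 64.4, 45.0 and 62.6 in control. The knockdown1 arrays were the highest and the knockdown2 arrays the lowest, with no overlap. Between the knockdowns MX1 differed by 1.26 (SE 0.22, adjusted p = 6.12e-05). Its rise in knockdown1 (0.69, SE 0.22, adjusted p = 0.0147) ended without knockdown1 replicate 2 (0.46, adjusted p = 0.151) or, in turn, control replicate 2 (0.53, adjusted p = 0.081), and knockdown2 gave -0.56 (adjusted p = 0.0555). That fall of MX1 was called with a mean signal of at least 50 (adjusted p = 0.0384) and with the replicate block (adjusted p = 0.0463). Without knockdown2 replicate 3 it was called too (-0.67, adjusted p = 0.0401). In these settings the rise of MX1 in knockdown1 stayed called. GBP1, a guanylate-binding GTPase that coats pathogens, read 40.2, 48.4 and 49.4 in knockdown1, 25.0, 19.4 and 15.4 in knockdown2, and 37.7, 23.5 and 38.4 in control. It was higher in knockdown1 than in knockdown2 (1.17, SE 0.27, adjusted p = 0.00158), on a probe set whose name marks possible sharing with related transcripts. The other 2 GBP1 probe sets gave 2.58 (SE 0.30) and 1.19 (SE 0.28) for the same difference. Against control in knockdown2, the first GBP1 probe set gave -0.69 and was not called, while the other 2 were called lower (-2.28, SE 0.30, adjusted p = 1.15e-05, and -0.82, SE 0.28, adjusted p = 0.0344, over all probe sets). As the mean of its probe sets GBP1 fell in knockdown2 (-1.26, adjusted p = 0.000823), and it also did so under the 3 other scalings (-0.72 to -0.65, adjusted p = 0.0302 to 0.0487), without knockdown2 replicate 1 (-0.86, adjusted p = 0.0372) and without control replicate 2 (-0.91, adjusted p = 0.0159). GBP2 read 87.7, 104 and 103 in knockdown1, 59.5, 87.9 and 74.1 in knockdown2, and 129, 83.0 and 105 in control, with overlap between the groups. Its fall in knockdown2 (-0.50, adjusted p = 0.0442) ended without any of 5 single arrays, knockdown1 replicate 3 (adjusted p = 0.0539), knockdown2 replicate 1 (-0.36, adjusted p = 0.238), knockdown2 replicate 3 (adjusted p = 0.0847), control replicate 1 (-0.35, adjusted p = 0.258) and control replicate 3 (adjusted p = 0.0628). The dimmer GBP2 probe set gave -0.11 in knockdown2 (SE 0.36). MX2 was bright, at 204 to 303, and was not called.

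Among the transcription factors, IRF9, the DNA-binding partner of the STAT proteins, read 324, 428 and 405 in knockdown1, 222, 239.6 and 247 in knockdown2, and 365, 261 and 305 in control. It was higher in knockdown1 than in knockdown2 (0.69, SE 0.16, adjusted p = 0.00122), and its differences from control were 0.31 (adjusted p = 0.128) and -0.38 (adjusted p = 0.0729). With the values as deposited, IRF9 was called higher in knockdown1 (0.40, adjusted p = 0.019) and lower in knockdown2 (-0.41, adjusted p = 0.0201). Without control replicate 2 it was called lower in knockdown2 as well (-0.50, adjusted p = 0.0165). IRF1, an activator of the same kind of element and of antigen-processing genes, behaved otherwise, with 47.0, 46.7 and 46.8 in knockdown1, 53.8, 49.0 and 57.3 in knockdown2, and 77.9, 76.6 and 67.2 in control. All 6 knockdown arrays lay below the controls. IRF1 fell in knockdown1 (-0.64, SE 0.18, adjusted p = 0.00755), and knockdown2 gave -0.46 (SE 0.18, adjusted p = 0.0642). In some alternatives the knockdown2 fall was called, as with the mean of the IRF1 probe sets (-0.77, adjusted p = 0.0292), the values as deposited (-0.49, adjusted p = 0.0321) and without control replicate 3 (-0.52, adjusted p = 0.0422). The dimmer IRF1 probe set fell too (-2.02 in knockdown1, SE 0.45, adjusted p = 0.00174 over all probe sets). SP110, a nuclear body protein, was not called on its brightest probe set (0.47 between the knockdowns, SE 0.19, adjusted p = 0.0646). Another SP110 probe set, averaging 107, 81.4 and 68.7 in knockdown1, knockdown2 and control, rose in knockdown1 (0.64, SE 0.16, adjusted p = 0.00431 over all probe sets).

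**Figure D3:**
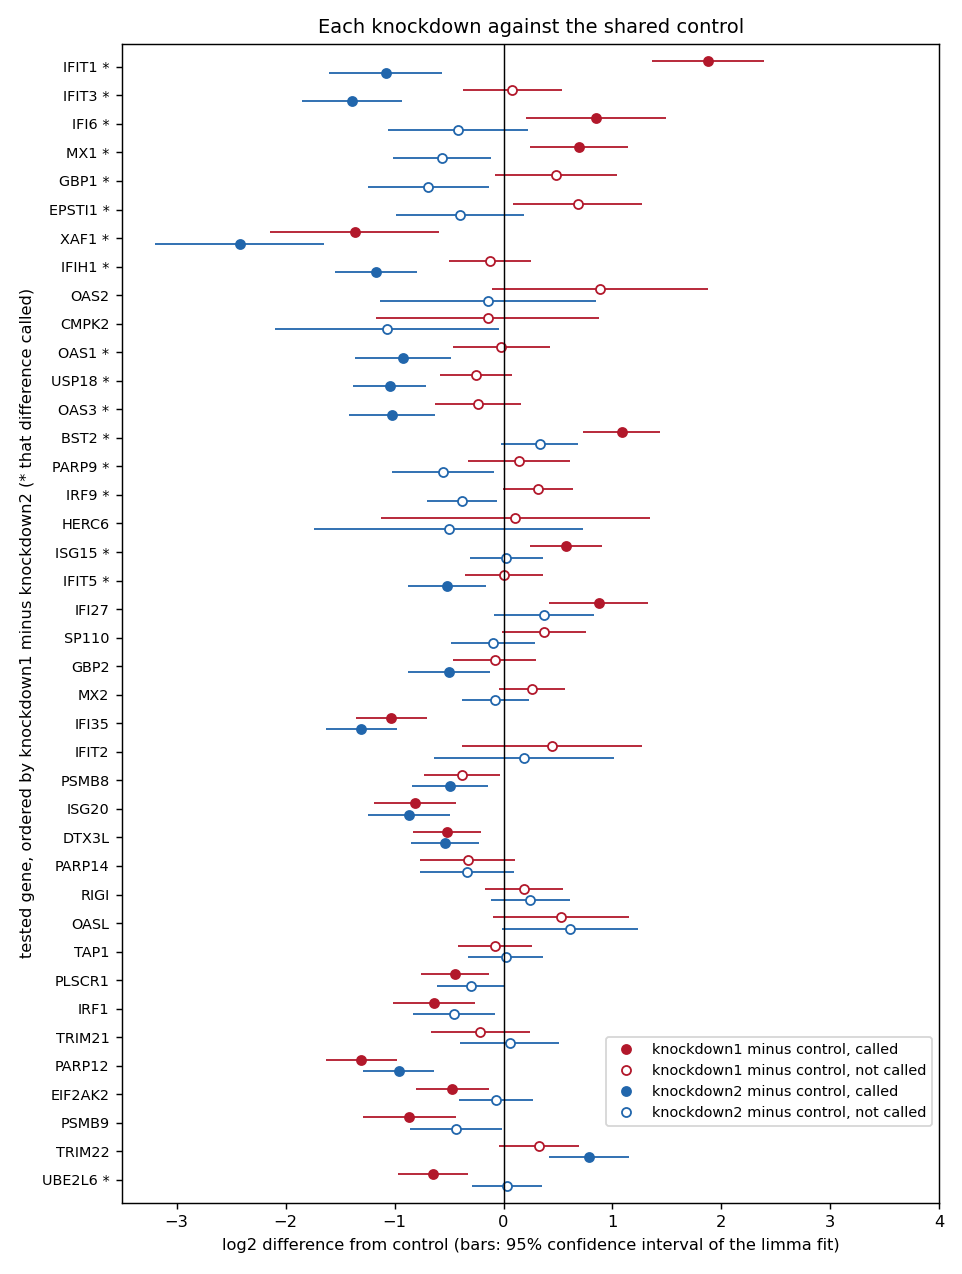
Log2 difference from control of the 40 tested interferon-stimulated genes in knockdown1 (red) and knockdown2 (blue), with bars for the 95% confidence interval of the limma fit, filled points for called differences and genes ordered by knockdown1 minus knockdown2 from the top. A star marks the 17 members whose difference between the knockdowns was called, IFIT1 (1.88 and -1.08) stands at the top and UBE2L6 (-0.65 and 0.03) at the bottom.

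PARP12, a mono-ADP-ribosyltransferase, read 91.8, 112 and 120.2 in knockdown1, 127, 143 and 141 in knockdown2, and 264, 235 and 307 in control. It fell in both knockdowns (-1.31, SE 0.16, adjusted p = 1.87e-07 in knockdown1, and -0.96, SE 0.16, adjusted p = 3.18e-05 in knockdown2). The ubiquitin ligase gene DTX3L read 202, 199 and 159 in knockdown1, 178, 183 and 191 in knockdown2, and 304, 243 and 259 in control, below all controls in both knockdowns. DTX3L fell by 0.52 in knockdown1 (adjusted p = 0.00883) and by 0.53 in knockdown2 (adjusted p = 0.00896). The first of these calls ended without knockdown1 replicate 3 (-0.41, adjusted p = 0.0583) or, in turn, control replicate 1 (-0.43, adjusted p = 0.075), and the second without control replicate 1 (-0.44, adjusted p = 0.0786). PARP9, whose product forms a complex with that of DTX3L, had another pattern. PARP9 read 46.6, 59.7 and 47.5 in knockdown1, 22.8, 33.8 and 38.2 in knockdown2, and 48.1, 42.8 and 47.6 in control. It was higher in knockdown1 than in knockdown2 (0.70, SE 0.23, adjusted p = 0.0227), which was no longer called without knockdown1 replicate 2 (0.58, adjusted p = 0.117) or knockdown2 replicate 1 (0.49, adjusted p = 0.167).

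BST2 (tetherin), which holds budding virus particles at the cell surface, read 294, 229 and 338 in knockdown1, 170.0, 166 and 167 in knockdown2, and 141, 104 and 159.8 in control. All knockdown arrays lay above the controls, and those of knockdown1 above those of knockdown2. BST2 rose in knockdown1 (1.08, SE 0.17, adjusted p = 1.13e-05), knockdown2 gave 0.33 (SE 0.17, adjusted p = 0.161), and knockdown1 exceeded knockdown2 by 0.75 (SE 0.17, adjusted p = 0.00132). In knockdown2 BST2 was called higher with arrays centred on the tested genes (0.38, adjusted p = 0.0181). Without control replicate 3 it was called higher there too (0.46, adjusted p = 0.0358). TRIM22, a tripartite-motif ubiquitin ligase, was the 1 member that rose in knockdown2 in the fit reported here, with 88.5, 83.9 and 65.5 in knockdown1, 109, 94.8 and 124 in knockdown2, and 72.4, 57.8 and 58.6 in control (0.78, SE 0.18, adjusted p = 0.00137). PLSCR1, a membrane scramblase, read 411, 532 and 497 in knockdown1, 493, 556 and 541 in knockdown2, and 627, 556 and 791 in control. Its fall in knockdown1 (-0.45, adjusted p = 0.0232) ended without knockdown1 replicate 1 (-0.34, adjusted p = 0.152), control replicate 1 (-0.47, adjusted p of 0.0511) or, in turn, control replicate 3 (-0.31, adjusted p of 0.083), and as the mean of its probe sets (-0.24, adjusted p = 0.357). PARP14, TRIM21 and the mitochondrial nucleotide kinase gene CMPK2 were not called. CMPK2 was dim, at 11.8, 18.8 and 12.6 in knockdown1, 6.74, 6.12 and 7.47 in knockdown2, and 18.1, 15.4 and 14.0 in control.

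XAF1, which counters an inhibitor of apoptosis, had the largest fall of the tested members. It read 18.7, 14.2 and 20.1 in knockdown1, 4.04, 9.54 and 11.2 in knockdown2, and 54.4, 37.2 and 52.3 in control, with no overlap between the 3 groups. XAF1 fell in knockdown1 (-1.37, SE 0.38, adjusted p = 0.00565) and in knockdown2 (-2.42, SE 0.38, adjusted p = 1.39e-05). The dimmer XAF1 probe set averaged 14.4, 11.7 and 24.3 in knockdown1, knockdown2 and control and was not called, with -0.67 (SE 0.46, adjusted p = 0.306) and -0.92 (SE 0.46, adjusted p = 0.16) against control and 0.26 (adjusted p = 0.75) between the knockdowns. Its difference between the knockdowns (1.06, SE 0.38, adjusted p = 0.0384) ended without knockdown1 replicate 1 (1.01, adjusted p = 0.0974), knockdown1 replicate 3 (0.96, adjusted p = 0.11), knockdown2 replicate 1 (0.69, adjusted p = 0.2), control replicate 1 (adjusted p of 0.0613) or, in turn, control replicate 3 (adjusted p of 0.0511). IFI35, a cytosolic partner of the interferon-induced protein NMI, read 131, 122 and 156 in knockdown1, 96.3, 119.6 and 122 in knockdown2, and 279, 246 and 315 in control. It fell in both knockdowns (-1.03, SE 0.16, adjusted p = 9.59e-06, and -1.30, SE 0.16, adjusted p = 3.83e-07), and the difference between them was 0.28 (95% interval -0.05 to 0.60).

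IFI6 and IFI27, which encode small membrane proteins, rose in knockdown1. IFI6 read 41.3, 46.7 and 36.1 in knockdown1, 10.9, 17.4 and 22.5 in knockdown2, and 28.0, 17.1 and 22.7 in control. The knockdown1 arrays lay above all others, and the knockdowns differed by 1.27 (SE 0.31, adjusted p = 0.00292). Its rise against control (0.85, SE 0.31, adjusted p = 0.0363) was lost without any 1 of the knockdown1 arrays, without control replicate 2 or without control replicate 3 (0.68 to 0.94, adjusted p = 0.0514 to 0.132). IFI27 read 58.4, 122 and 123 in knockdown1, 76.2, 60.4 and 65.9 in knockdown2, and 59.1, 47.6 and 48.8 in control. It rose in knockdown1 (0.87, SE 0.22, adjusted p = 0.00283), where replicate 1 overlapped the controls. EPSTI1, with 32.2, 39.3 and 45.6 in knockdown1, 21.6, 15.6 and 16.1 in knockdown2, and 22.7, 23.5 and 24.6 in control, was higher in knockdown1 than in knockdown2 (1.08, SE 0.29, adjusted p = 0.00539).

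Of the 3 tested antigen-processing members, PSMB9 was called lower in knockdown1 and PSMB8 in knockdown2, and TAP1 was not called. Of all tested genes, 19% fell in knockdown1 and 13.9% in knockdown2. PSMB9, an immunoproteasome subunit, read 40.2, 44.9 and 66.2 in knockdown1, 58.0, 62.7 and 82.2 in knockdown2, and 106, 72.7 and 97.6 in control, and it fell in knockdown1 (-0.87, SE 0.21, adjusted p = 0.00162). PSMB8, another subunit, read 109.9, 94.8 and 98.7 in knockdown1, 103, 95.1 and 83.8 in knockdown2, and 123, 114 and 164 in control. All 6 knockdown arrays of PSMB8 lay below the controls. Its fall in knockdown2 (-0.49, SE 0.17, adjusted p = 0.0306) ended without knockdown2 replicate 2 (-0.50, adjusted p = 0.0715), knockdown2 replicate 3 (-0.41, adjusted p = 0.149) or, in turn, control replicate 3 (-0.33, adjusted p = 0.128). TAP1, the peptide transporter subunit beside them, stayed between 116 and 182 with no call.

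**Figure D4:**
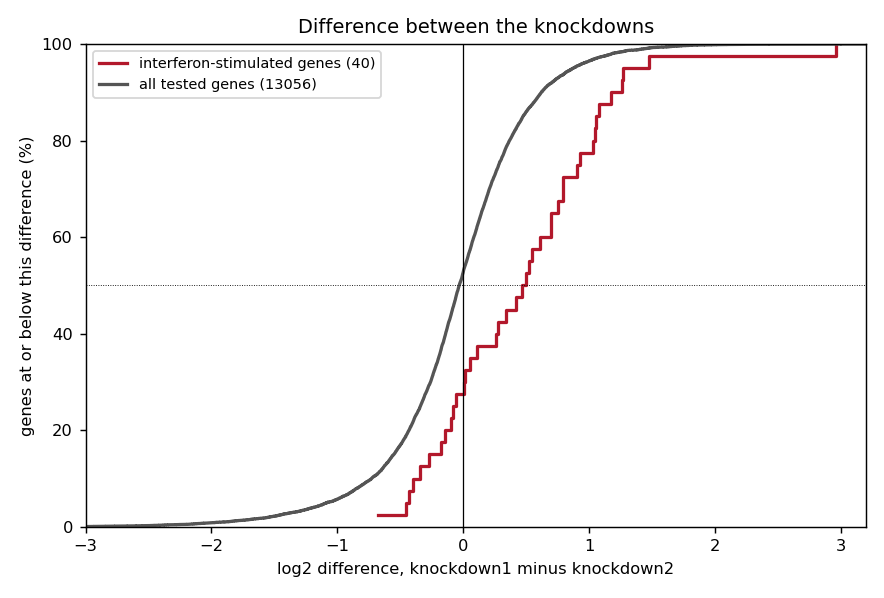
Cumulative share of genes (%) by the log2 difference knockdown1 minus knockdown2, for the 40 tested interferon-stimulated genes (red) and all 13056 tested genes (grey). The red curve lies to the right, with a median of 0.48 against -0.03.

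Averaged over both knockdowns, 3 members rose (IFI27, TRIM22 and BST2) and 13 fell, where 14.7% of all tested genes rose and 17.9% fell. The 13 were IFIT3, ISG20, OAS3, IFI35, IFIH1, XAF1, IRF1, USP18, PARP12, DTX3L, PLSCR1, PSMB8 and PSMB9. These averages joined groups that differed. When the 6 knockdown arrays were treated as 1 group, so that the difference between the knockdowns counted as spread, 0 members rose and 6 fell, where 7.97% of all tested genes rose and 8.92% fell in that fit. The 6 were ISG20, IFI35, XAF1, IRF1, PARP12 and DTX3L. All of these but IRF1 kept the averaged call in every alternative run, among them IFI35 (-1.17, SE 0.14, adjusted p = 1.59e-07) and PARP12 (-1.13, SE 0.14, adjusted p = 2.16e-07). Single arrays also ended some of the averaged calls, namely IFIT3 (-0.65, adjusted p = 0.00917) without control replicate 3 (-0.47, adjusted p = 0.0901), IFI27 (0.62, adjusted p = 0.0131) without control replicate 2 (0.57, adjusted p = 0.0565), IRF1 (-0.55, adjusted p = 0.00828) without control replicate 1 (-0.51, adjusted p = 0.0528) and PSMB9 (-0.65, adjusted p = 0.00572) without control replicate 1 (-0.54, adjusted p = 0.0578). PSMB8 (-0.43, adjusted p = 0.0225) ended without knockdown2 replicate 3 (-0.40, adjusted p = 0.0599) or, in turn, control replicate 3 (-0.28, adjusted p = 0.15). PLSCR1 (-0.37, adjusted p = 0.0298) ended without knockdown1 replicate 1 (-0.32, adjusted p = 0.0859), knockdown2 replicate 1 (-0.35, adjusted p = 0.0737), knockdown2 replicate 3 (-0.38, adjusted p = 0.0504), control replicate 1 (-0.40, adjusted p of 0.0718) or, in turn, control replicate 3 (-0.23, adjusted p of 0.152).

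Other settings of the fit ended some calls as well. With the mean of all kept probe sets, the fall of GBP2 in knockdown2 gave -0.30 (adjusted p = 0.248) and the difference of XAF1 between the knockdowns 0.66 (adjusted p = 0.189). EIF2AK2 in knockdown1 (-0.38, adjusted p = 0.0656), IFIT5 in knockdown2 (-0.56, adjusted p = 0.0631), PARP9 between the knockdowns (0.52, adjusted p = 0.0539) and averaged PLSCR1 (-0.30, adjusted p = 0.177) were not called in that setting either. A pseudocount equal to the median ended the XAF1 difference (0.52, adjusted p = 0.0742). Without the filter on dim probe sets, IFI6 and MX1 in knockdown1, IFIT5, GBP2 and PSMB8 in knockdown2, IFIT5, XAF1 and PARP9 between the knockdowns, and averaged IFI27 were not called (adjusted p = 0.0627 to 0.109). Without the trend in the variance, MX1, EIF2AK2 and PLSCR1 in knockdown1, IFIT5, GBP2 and PSMB8 in knockdown2, IFIT5 and ISG15 between the knockdowns, and averaged IFIT3, IFI27, PLSCR1 and PSMB8 were not called (adjusted p = 0.0501 to 0.108). With only the arrays of the groups compared, PLSCR1 in knockdown1, GBP2 in knockdown2 and XAF1 between the knockdowns were not called (adjusted p = 0.0526 to 0.119). Further probe sets of called genes that were not called themselves were those of IFIT5 (-0.61 in knockdown2, SE 0.31, and 0.72 between the knockdowns, SE 0.31), EIF2AK2 (-0.35 and -0.31 in knockdown1), PLSCR1 (-0.04 in knockdown1, SE 0.24), PARP9 (0.34 between the knockdowns, SE 0.24) and IFIT3 in the average (-0.24, SE 0.17).

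On the brightest probe set no call was made for 11 members, IFIT2, MX2, OAS2, OASL, RIGI, HERC6, CMPK2, PARP14, TRIM21, SP110 and TAP1. Their mean signals over the 9 arrays ran between 12.3 and 240.2, and 5 of them had a mean under 30, where the spread is widest. Their differences between the knockdowns lay between -0.27 and 1.03, so that a missed call does not show that a gene was level. CMPK2 gave 0.93 (SE 0.50) and OAS2 1.03 (SE 0.48).

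The 10 members under the filter on dim probe sets were IFI16, IFI44, IFI44L, IRF7, HERC5, RSAD2, DDX60, SAMD9, SAMD9L and CXCL10. Other than RSAD2, none of them reached a signal above 18.8 on any array on its brightest probe set. RSAD2 encodes viperin, an enzyme that makes a chain terminator of viral RNA synthesis. It read 20.5, 35.0 and 13.6 in knockdown1, 1.66, 2.80 and 2.31 in knockdown2, and 5.72, 2.71 and 9.29 in control, so that all knockdown1 arrays lay above the other 6. In the fit without the filter RSAD2 rose in knockdown1 (1.75, SE 0.50, adjusted p = 0.0196) and was higher there than in knockdown2 (2.65, SE 0.50, adjusted p = 0.00142), and it was the 1 member of the 10 with a call.

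Other genes of the pathway were read from lists of ligands, receptors, regulators, sensors and further targets, and alternatives were run for the members only. The count of every list stands beside these shares of all tested genes. In knockdown1 14.3% rose and 19% fell, and in knockdown2 13.7% rose and 13.9% fell. Between the knockdowns 10.5% were called higher in knockdown1 and 16.1% lower. Whether a list departs from these shares was not tested. Of 21 interferon ligand genes, 2 were tested, and IFNA17 was called lower in knockdown2 (13.5, 14.4 and 10.8 in knockdown1, 4.35, 6.43 and 13.3 in knockdown2, and 22.8, 18.4 and 20.4 in control), at a brightness near the filter and in a family of near-identical copies. The other 16 ligand genes with a probe set of their own were under the filter, with highest signals between 2.90 and 18.7. Of 9 tested genes for receptors and JAK-STAT signalling, 1 rose and 0 fell in knockdown1, 2 rose and 1 fell in knockdown2, and 2 were higher and 1 lower in knockdown1 than in knockdown2. STAT3, which carries cytokine signals of the interleukin 6 family, read 807, 617 and 726 in knockdown1, 475, 440.3 and 425 in knockdown2, and 274, 235 and 338 in control. It rose in both knockdowns (1.35, SE 0.15, adjusted p = 6.22e-08, and 0.67, SE 0.15, adjusted p = 0.00132). Of the interferon gamma receptor chains, IFNGR2 rose in knockdown2 (0.81, SE 0.14, adjusted p = 5.27e-05) and IFNGR1 fell there (-0.54, SE 0.14, adjusted p = 0.00444).

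Among 12 negative regulators of the signal, 2 rose and 1 fell in knockdown1, and 2 rose and 0 fell in knockdown2. PTPN11, the phosphatase SHP2, rose in both (1.38, SE 0.16, adjusted p = 8.48e-08 in knockdown1, and 1.63, SE 0.16, adjusted p = 7.97e-09 in knockdown2). IRF2, a repressor that competes with IRF1, read 95.1, 86.7 and 81.9 in knockdown1, 181, 169 and 139 in knockdown2, and 158, 149 and 156 in control (-0.80 in knockdown1, SE 0.16, adjusted p = 0.000179). Between the knockdowns 1 regulator was higher in knockdown1 and 2 lower. Among 15 tested genes of nucleic acid sensing, 2 rose and 2 fell in knockdown1, 2 rose and 1 fell in knockdown2, and 0 were higher and 1 lower in knockdown1 than in knockdown2. The adaptor gene TRAF3 rose in both (1.28, SE 0.22, adjusted p = 4.04e-05, and 1.24, SE 0.22, adjusted p = 8.98e-05), and TRIM25, a ligase that activates RIG-I, fell in both (-0.96, SE 0.17, adjusted p = 4.05e-05, and -0.62, SE 0.17, adjusted p = 0.00509).

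Among 17 further genes of class I antigen presentation, 1 rose and 5 fell in knockdown1, 1 rose and 1 fell in knockdown2, and 2 were higher and 6 lower in knockdown1 than in knockdown2. NLRC5, an activator of class I genes, rose in knockdown1 (1.19, SE 0.36, adjusted p = 0.0102). The peptide-trimming enzyme gene ERAP1 fell there (-0.72, SE 0.22, adjusted p = 0.0115), as did HLA-B (-0.67, SE 0.14, adjusted p = 0.000353). HLA genes are near-identical in stretches, so the value of HLA-B may take in related transcripts. Among 37 further interferon-induced genes, 9 rose and 6 fell in knockdown1, 9 rose and 10 fell in knockdown2, and 7 were higher and 1 lower in knockdown1 than in knockdown2. TNFSF10, the death ligand TRAIL, read 62.0, 47.8 and 63.9 in knockdown1, 16.9, 20.2 and 13.5 in knockdown2, and 136, 121 and 145 in control. It fell in both (-1.20, SE 0.21, adjusted p = 3.59e-05, and -2.90, SE 0.21, adjusted p = 1.97e-11) and was higher in knockdown1 than in knockdown2 (1.70, SE 0.21, adjusted p = 2.57e-07), the same order as XAF1. APOL6 had that order too (-0.92 and -1.72, SE 0.20 each). SP100, a nuclear body protein, and TRIM38 rose in both knockdowns (1.37 and 0.82, SE 0.16 each, and 1.30 and 0.88, SE 0.19 each).

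Among 13 tested genes of NF-kappaB feedback and cytokines, 1 rose and 4 fell in knockdown1, 1 rose and 2 fell in knockdown2, and 2 were higher and 1 lower in knockdown1 than in knockdown2. The gene that rose was CXCL8, the neutrophil chemokine interleukin 8, at 191, 182 and 224 in knockdown1, 21.3, 24.2 and 14.1 in knockdown2, and 9.91, 9.04 and 6.53 in control. CCL20, another chemokine, fell in both knockdowns (-2.39, SE 0.38, adjusted p = 1.19e-05, and -3.61, SE 0.38, adjusted p = 2.57e-08). NFKBIA, the inhibitor of NF-kappaB, fell in knockdown1 (-1.16, SE 0.17, adjusted p = 3.46e-06).

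**Figure D5:**
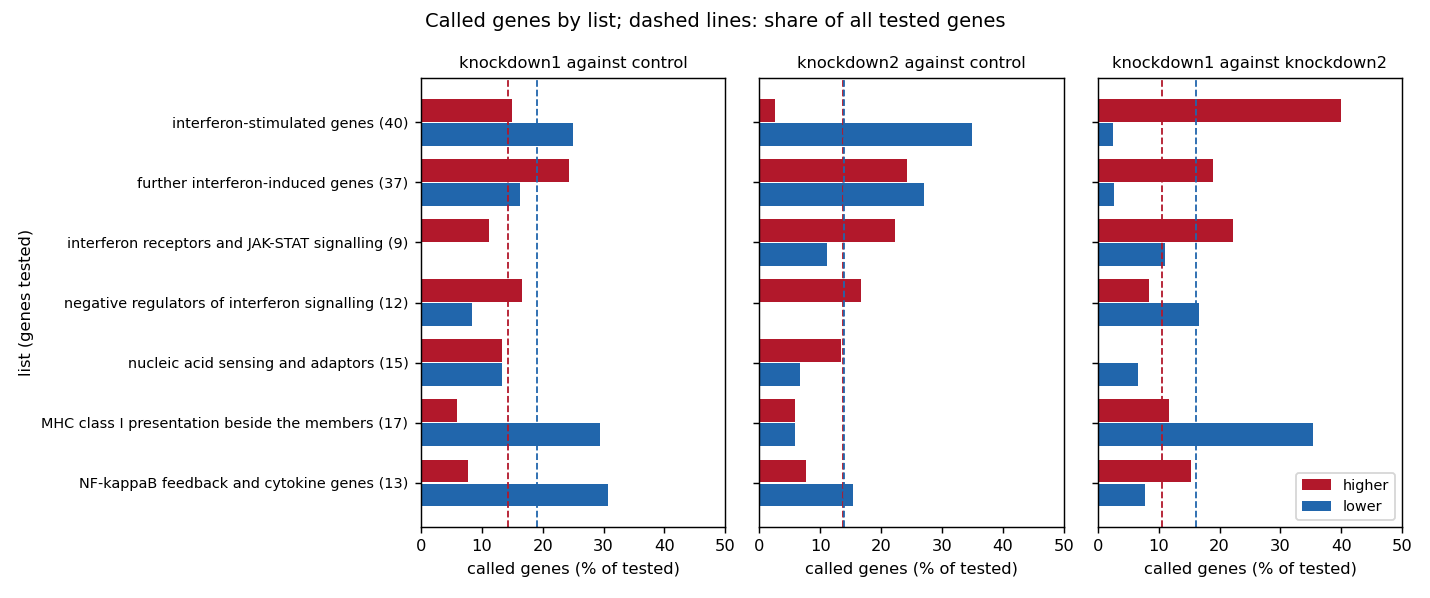
Percent of tested genes called higher (red) and lower (blue) in knockdown1 against control, knockdown2 against control and knockdown1 against knockdown2, for the interferon-stimulated genes and 6 pathway lists, with the number tested in brackets and dashed lines at the share of all tested genes. The top bars show 40% of the interferon-stimulated genes higher in knockdown1 than in knockdown2, beside 10.5% of all tested genes.

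Markers of other cells were read beside these results. Of 15 leukocyte markers with a probe set of their own, 6 were tested. The summed signal of all 15, mostly that of LYZ, was 2838 to 3601 in knockdown1, 3570 to 4443 in knockdown2 and 3123 to 4125 in control. PTPRC, CD3E, NKG7 and CLEC4C were under the filter, and PTPRC did not exceed 10.1 on any array. The 9 endothelial markers, of which 3 were tested, summed to 259 to 347 in knockdown1, 341 to 383 in knockdown2 and 171 to 192 in control. CDH5 and VWF were under the filter. The 10 fibroblast and stellate markers, of which 7 were tested, summed to 875 to 1098 in knockdown1, 831 to 1052 in knockdown2 and 510.1 to 600.0 in control. COL3A1 and LUM were under the filter. Of the 6 tested leukocyte markers, 0 rose and 2 fell in knockdown1, and 1 rose and 1 fell in knockdown2. Of the 3 tested endothelial markers, 2 rose and 0 fell in each knockdown. Of the 7 tested fibroblast and stellate markers, 1 rose and 1 fell in knockdown1, and 1 rose and 0 fell in knockdown2. Of all tested genes, 14.3% rose and 19% fell in knockdown1, and 13.7% rose and 13.9% fell in knockdown2. The part of these sums and calls in the results on interferon-stimulated genes was not tested.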

How the data were processed

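The authors deposited linear probe-set intensity values made with MAS5, per the submitters' processing notes. Neither a MAS5 version nor scan batches are given in the sources used here. After trimming 2% at each end, the mean of every deposited array was 100.0. Array medians differed by 1.28 times (12.3 to 15.7), so each array was scaled (0.898 to 1.15) to a median of 14.1.

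Names came from GEO's platform annotation. Of 54675 probe sets, 62 were controls, 41091 had 1 gene, 1801 several and 11721 none. A single-gene probe set was kept if above its array median in at least 3 of 9 arrays (24565 kept), and a gene was its brightest kept probe set on average. Of 89 member probe sets, 63 were kept.

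Log2 values were fitted with limma 3.58.1 in R 4.3.3 (3 group means, two-sided, eBayes with a trend in the variance), adjusted by Benjamini-Hochberg across 13056 genes, and the procedure was tested on simulated data. The number of arrays limits the precision. No 2 arrays shared more than 1.37% of their values.

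Members and lists were chosen with earlier results of these data known. Values per array are given for called members, and from each pathway list at most 4 called genes with the largest changes, plus 1 against the majority. Alternatives changed the scaling, pseudocount, filter, variance model, probe-set rule, arrays fitted, replicate block and grouping, or left out 1 array. Same-numbered arrays of different groups correlated at -0.02 to 0.13 in their deviations, over 0.1 in 1 of 9 pairs, so the numbers were not taken to pair them.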

Additional observations from a re-analysis of the deposited data

Results flagged for a closer look

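The difference between the knockdowns passed its own test for 17 members, knockdown1 minus knockdown2 on the log2 scale. IFIT1 had 2.96, IFIT3 1.47 and IFIT5 0.52. ISG15 had 0.55 and USP18 0.79, while UBE2L6 had -0.68. OAS1 had 0.90, OAS3 0.79 and IFIH1 1.05. MX1 had 1.26 and GBP1 1.17. IRF9 had 0.69, PARP9 0.70 and BST2 0.75. IFI6 had 1.27, XAF1 1.06 and EPSTI1 1.08. RSAD2 lies outside the tested genes and had a mean signal of 23.0 in knockdown1, above its level in control.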

How the results depend on the processing

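For both knockdowns averaged against control, 16 members were called, and 13 to 18 were called when single arrays were left out, where 11% to 19.7% of all tested genes rose and 14.2% to 21.3% fell. Treating the 6 knockdown arrays as 1 group left 6 called, where 7.97% of all tested genes rose and 8.92% fell. Counts when single arrays were left out were 13 to 16 for knockdown1 against control (16 as reported, and 10.5% to 19.1% of all tested genes higher and 15.8% to 22.7% lower), 13 to 20 for knockdown2 against control (15 as reported, and 10.4% to 19.3% higher and 10.8% to 17.2% lower) and 13 to 20 for knockdown1 against knockdown2 (17 as reported, and 7.39% to 12.9% higher and 12.6% to 19% lower). With the replicate block, which the arrays' numbers do not support as a pairing, 19 members were called in the average (17.3% of all tested genes higher and 20.3% lower), 16 for knockdown1 against control (16.8% and 21.4%), 18 for knockdown2 against control (16.3% in each direction) and 21 for knockdown1 against knockdown2 (12.7% and 19%). Across 64 called member results and 1271 alternatives, 1178 kept the call and 93 lost it with the direction kept, 0 changed direction, and 39 results kept the call in every alternative run. The members lost when the knockdown arrays are pooled follow from that construction, and the cause of the other losses was not tested. MAS5 signals of dim genes scatter, so members near the filter have the least certain differences. The number of arrays sets the precision, and no depth stands behind these values.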

Other observations

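The interferon-induced transmembrane genes IFITM1, IFITM2 and IFITM3, whose products block virus entry, were chosen for mention after their values were seen. IFITM1 read 330.1, 449 and 525 in knockdown1, 447, 496 and 544 in knockdown2, and 266, 288 and 278 in control. IFITM3 read 1910.5, 2062 and 2518 in knockdown1, 2123, 2239 and 2487 in knockdown2, and 1279, 1193 and 1439 in control. For both genes all 6 knockdown arrays lay above the controls. The averaged differences from control were 0.73 for IFITM1, 0.88 for IFITM2 and 0.77 for IFITM3, and these near-identical genes may share signal. In RNA quality, the 3′ to 5′ ratio of the ACTB probe sets was 1.19 to 1.28 in knockdown1, 1.16 to 1.2 in knockdown2 and 1.17 to 1.39 in control, so the groups overlapped. The 1.39 was that of control replicate 3, the highest of all arrays, and the other control arrays had 1.17 each. Control replicate 3 also had the lowest deposited median, 12.3.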
